A study of Arabidopsis thaliana with 12 samples.

Results

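The comparison covers stratified seeds of Arabidopsis thaliana, ecotype Col-0, labelled atalkbh1a/1b or wild type (WT). Its members are the 3 mutant-labelled and 3 WT libraries whose titles mark them as stratified, 6 of the 12 libraries of the series, and all loci of the deposited table. Both groups were kept in water at 4 °C for 2 days, and the series title names AtALKBH1A and AtALKBH1B as demethylases of N6-methyladenine in DNA. The labels do not give the mutant alleles, and they do not say whether libraries of a group came from separate plants, so p-values measure a spread between samples that may be technical. The question was which transcripts differ between the genotypes once seeds have been stratified. Of 32833 loci, 23302 had a value above 0 in at least 1 of the 6 libraries, and 14582 reached 1 RPKM in at least 3 of them and were tested. RPKM are reads divided by transcript length and by library size.

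Stratification is a cold, wet treatment that releases seed dormancy. During it a seed draws on transcripts stored at maturation, such as those for storage proteins, LEA proteins and chaperones, and begins to make those of growth, such as ribosomal proteins, cell wall enzymes, histones and later photosynthesis genes. Abscisic acid holds the dormant state and gibberellin opposes it. AlkB homologues are dioxygenases that use iron and 2-oxoglutarate to take methyl groups off nucleic acids.

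The libraries did not group fully by genotype, since WT library 3 was closer to the mutant-labelled libraries, and this touches most of the results. Nuclear ribosomal RNA took 15.1%, 3.78% and 29.3% of the reads in mutant-labelled libraries 1, 2 and 3, against 5.91%, 3.05% and 15.4% in WT libraries 1, 2 and 3. WT library 3 had a Pearson correlation over all tested loci of 0.985, 0.951 and 0.979 with mutant-labelled libraries 1, 2 and 3, against 0.909 and 0.882 with WT libraries 1 and 2. Mutant-labelled library 2 had a correlation of 0.954 and 0.947 with mutant-labelled 1 and 3, against 0.918 and 0.890 with WT 1 and 2. Ribosomal RNA divided the libraries in another way. Mutant-labelled 1 and 3 and WT 3 had over 10% ribosomal RNA, while mutant-labelled 2 and WT 1 and 2 had under 10%. These 2 sets of 3 libraries are called the high and low rRNA classes, a division chosen after the values were seen. The reads by which RPKM divides were similar, from 21.4 to 22.99 M per library, but they include ribosomal RNA. Reads on loci with a known length, ribosomal RNA among them, were 67.5% of that number in mutant-labelled 3. In the other libraries they were 77.4% to 85.9%. Fewer reads of other RNA therefore lie behind the values of mutant-labelled 3. It had 12884 loci at 1 RPKM or more, against 15285 in WT 2.

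**Figure D1:**
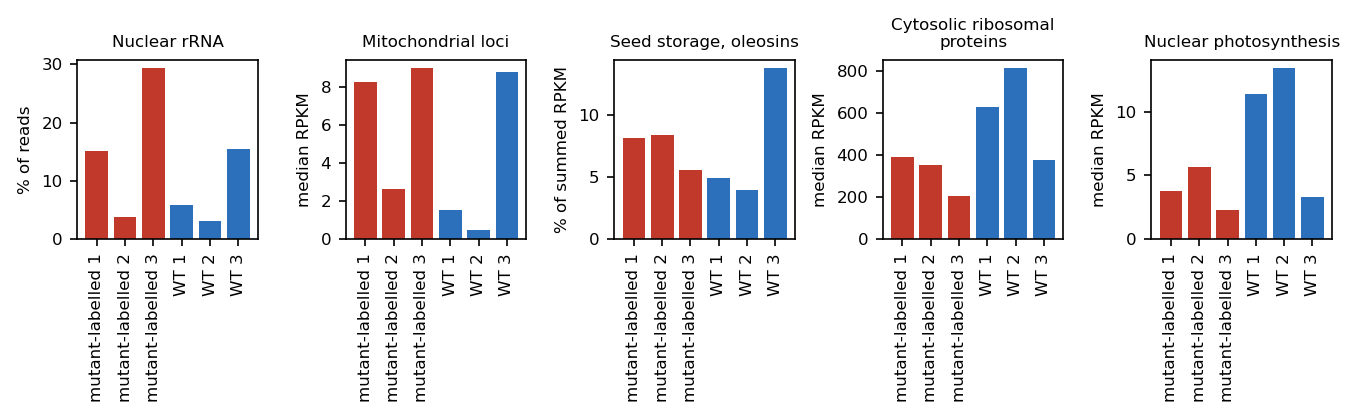
Each panel has 1 bar for each of the 6 libraries, mutant-labelled in red and WT in blue: ribosomal RNA as a percent of reads, storage genes as a percent of summed RPKM, and the median RPKM of tested mitochondrial, cytosolic ribosomal protein and nuclear photosynthesis loci. WT 3 stands at 15.4% ribosomal RNA and a ribosomal protein median of 376 RPKM, beside mutant-labelled 1 at 15.1% and 391 RPKM, while mutant-labelled 2 has 3.78% ribosomal RNA, between WT 1 and WT 2.

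By limma on log2(RPKM + 1), 44 loci were higher in mutant-labelled seeds (0.302% of those tested) and 95 were lower (0.651%) at an adjusted p under 0.05. The fit replaced each locus's own variance by a trend over all loci, because the estimate of the prior was infinite, so a call does not show that the 3 libraries of each group agreed. With each locus's own variance no locus passed, although 93 were higher and 145 lower at an unadjusted p under 0.05. The libraries of the groups did not overlap for 9 of the 44 higher loci (0.0617% of all tested) and 34 of the 95 lower ones (0.233%). Without regard to the test, 179 loci were higher without overlap (1.23%) and 539 lower (3.70%). For 36 of the 44 higher and 82 of the 95 lower loci, WT 3 lay nearer the mean of the mutant-labelled libraries than that of WT 1 and 2. This was 84.9% of the calls, near the 80.1% of all tested loci. The median log2 change over all tested loci was -0.20, and it was -0.001 after quantile normalization, so a small negative value is near the general shift. Leaving out 1 library moved the number of calls. Of the 139 loci, 12 passed without WT 1, 12 without WT 2, 30 without mutant-labelled 1, 119 without mutant-labelled 2 and 138 without WT 3. Without mutant-labelled 3, 2 passed, AT1G64795 and AT1G75945, which also passed in the other 5 such fits. That fit was of another form, since its prior had 4.239 degrees of freedom while the prior of the other 5 was infinite, as in the fit of all 6 libraries. Its count of calls is therefore not on the same footing as the others, and the part of the prior in the lost calls was not tested. Without mutant-labelled 3 all 139 loci kept their direction and 137 were still at least 2-fold changed, with a median absolute log2 change of 1.49, against 1.71 with it. The difference in form applies to every count of calls given here without that library. In the 5 fits other than that one, BGLU30, HSP70-5, GSTU25, UGT73B2, AT5G01780, AT5G05365, PER69 and HTR2 passed as well.

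**Figure D2:**
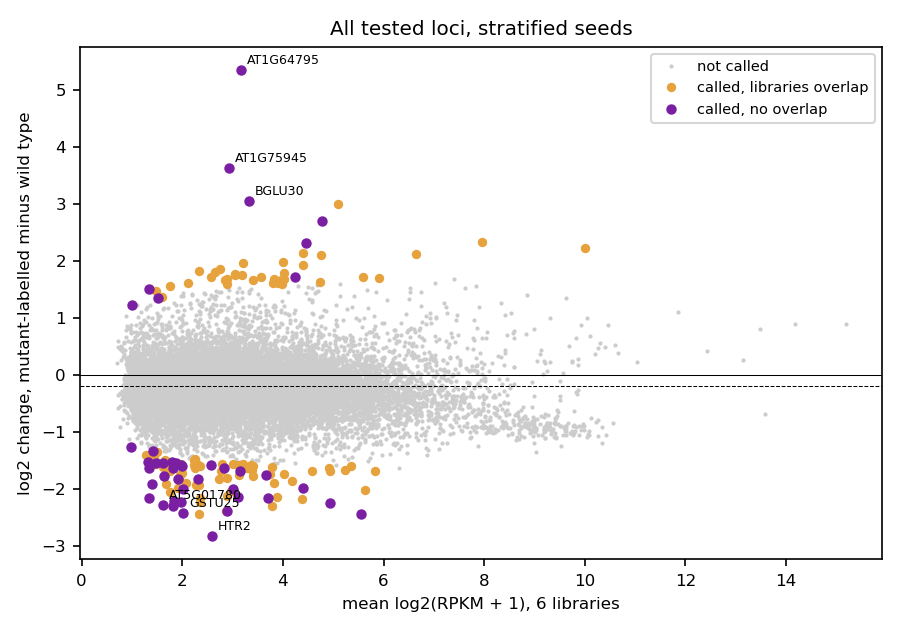
Each point is a tested locus, with its mean log2(RPKM + 1) over the 6 libraries on the x axis and its log2 change, mutant-labelled minus WT, on the y axis. Purple marks called loci whose libraries do not overlap, orange called loci whose libraries do, and the dashed line is the median of -0.20. AT1G64795 at 5.34 and AT1G75945 at 3.63 lie farthest above the rest.

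The ALKBH loci were examined first, since they bear on the label. The files and the reference do not pair the names ALKBH1A and ALKBH1B with loci. AT1G11780 was taken as ALKBH1A and AT3G14140 as ALKBH1B from general knowledge. AT1G11780 (chromosome 1, 3976839 to 3979237, TAIR10.1) had 13.0, 12.7 and 5.86 RPKM in mutant-labelled libraries, against 12.9, 15.0 and 10.9 RPKM in WT libraries. The ranges overlap, with mutant-labelled 3 alone below all WT libraries, and the log2 change of -0.34 ± 0.45 (SE) did not pass (limma, adjusted p = 0.914). AT3G14140 (chromosome 3, 4688546 to 4690404) was close to absent, with 2, 2 and 3 reads in mutant-labelled libraries and 0, 4 and 0 reads in WT libraries, and was not tested. Transcript levels of these loci therefore do not separate the libraries by their label, and a change in sequence cannot be seen in them. For this reason the libraries are called mutant-labelled.

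Another locus of the same dioxygenase family did separate the groups. AT5G01780, entered here as ALKBH1D (chromosome 5, 302098 to 304279), had 0.436, 0.499 and 0.236 RPKM in mutant-labelled libraries, against 6.58, 6.69 and 4.29 RPKM in WT libraries. Those values rest on 21, 23 and 11 reads in mutant-labelled libraries and on 319, 302 and 204 reads in WT libraries. The groups are far apart and WT 3 sits with the other WT libraries. AT5G01780 fell by 2.29 on the log2 scale, with an SE of 0.39 (limma, adjusted p = 7.4e-06), and it also passed in the fit of all 12 libraries (limma, adjusted p = 2.2e-05). That fit, in which the spread is pooled over dry and stratified seeds, called 5 higher loci (0.0343%) and 23 lower ones (0.158%) in the stratified comparison. Its left neighbour RAPTOR2, 82 bases away, had 0.854, 1.39 and 0.455 RPKM in mutant-labelled libraries and 1.32, 1.66 and 0.547 RPKM in WT libraries, ranges that overlap. Within 1 Mb of AT5G01780, 3 of 211 other tested loci were called, LTP10, LAX1 and AT5G02550, all lower (1.42%, near the 0.953% called over all loci). In the same window 1 of 329 was called around AT1G11780 (0.304%), ELP, and 1 of 347 around AT3G14140 (0.288%), PBP1, both lower.

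Among the other AlkB homologues, 3 were tested and none passed. ALKBH10B (AT4G02940), an RNA demethylase, averaged 12.5 ± 4.28 RPKM in mutant-labelled libraries and 19.1 ± 3.005 RPKM in WT libraries (SD, n = 3 each; limma, adjusted p = 0.719). The groups did not overlap for ALKBH10B, at 14.1, 15.7 and 7.65 RPKM in mutant-labelled libraries, against 21.8, 19.7 and 15.9 RPKM in WT libraries. With AT5G01780, 2 of the 5 tested ALKBH loci were lower without overlap (40%, beside 3.70% of all loci). ALKBH9C (AT4G36090) averaged 19.3 ± 3.499 RPKM in mutant-labelled libraries and 15.1 ± 3.13 RPKM in WT libraries (limma, adjusted p = 0.913). ALKBH6 averaged 1.56 ± 0.808 RPKM in mutant-labelled libraries and 2.47 ± 0.952 RPKM in WT libraries.

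A small set of loci changed the same way in both classes of library. Within the high rRNA class and within the low one, 6 loci were at least 2-fold higher in mutant-labelled libraries (0.0411% of all tested) and 26 at least 2-fold lower (0.178%), on the log2(RPKM + 1) scale and with no test inside a class. The high class has WT 3 as its only WT library, and the low class has mutant-labelled 2 as its only mutant-labelled library. In the high class alone, 17 loci were at least 2-fold higher and 202 lower. In the low class alone, 1176 were higher and 1080 lower. The rule for both classes was set after the values were seen, so the set is a description. Of the set, 4 of the higher and 14 of the lower loci were among the calls, and 29 of all 32 had no overlap between the groups. Over all tested loci, 0.302% were called higher and 0.651% lower, and 1.23% were higher and 3.70% lower without overlap. The set was picked for its change in these same libraries, so these counts are not separate support. By contrast, 79 loci moved at least 2-fold in opposite directions in the classes.

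**Figure D3:**
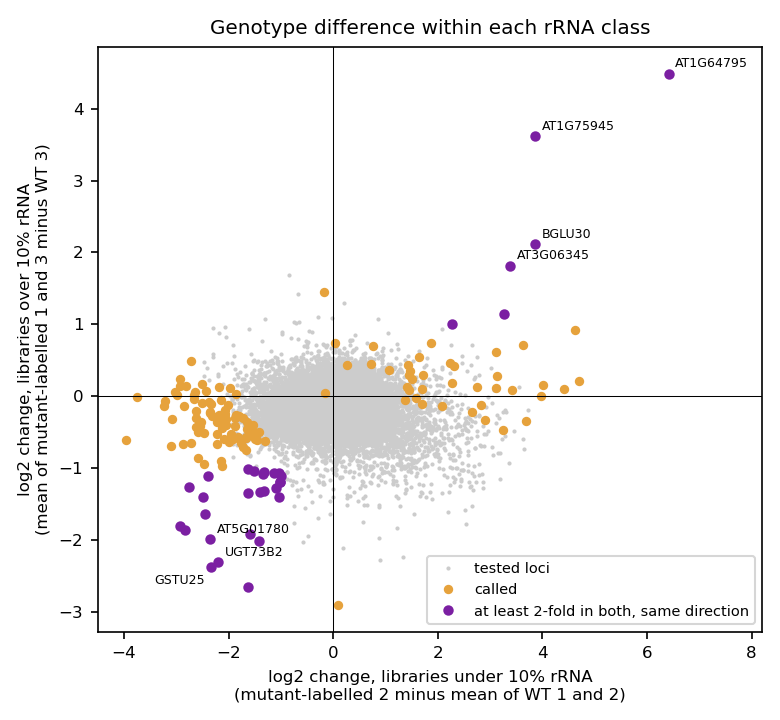
Each point is a tested locus, with its log2 change in the low rRNA class (mutant-labelled 2 minus the mean of WT 1 and 2) on the x axis and in the high rRNA class (mean of mutant-labelled 1 and 3 minus WT 3) on the y axis. The 32 purple loci are at least 2-fold changed the same way in both, while many other calls in orange lie near 0 on the y axis.

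AT1G64795, a locus with no gene name in the files, showed the widest gap of any locus tested. It had 55.8, 102.5 and 30.4 RPKM in mutant-labelled libraries, against 0, 0.465 and 0.884 RPKM in WT libraries, which are 256, 450 and 135 reads against 0, 2 and 4 reads. It was near silent in every WT library, WT 3 included. AT1G64795 rose by 5.34 on the log2 scale, with an SE of 0.45 (limma, adjusted p = 7.4e-29). It lies on the plus strand of chromosome 1 (24082579 to 24082848) inside ILA, a HEAT repeat protein gene that is transcribed from the other strand, and 1 of its exons overlaps an ILA exon. Whether reads were counted by strand is not given in the sources used here, so reads of the pair may not be fully told apart. ILA had 16.6, 18.3 and 11.8 RPKM in mutant-labelled libraries and 19.8, 22.7 and 11.7 RPKM in WT libraries, with overlapping ranges.

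AT1G75945, also unnamed in the files, behaved alike. Its values were 27.6, 32.4 and 19.2 RPKM in mutant-labelled libraries, against 0.849, 1.82 and 0.963 RPKM in WT libraries. Every mutant-labelled library is far above every WT library, and AT1G75945 rose by 3.63 on the log2 scale, with an SE of 0.44 (limma, adjusted p = 2.2e-12). It lies on the minus strand of chromosome 1 (28515245 to 28515916), 602 bases from SKP1A, a subunit of SCF ubiquitin ligases. SKP1A had 217, 220 and 122 RPKM in mutant-labelled libraries and 159, 176 and 197 RPKM in WT libraries, again overlapping.

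BGLU30, a beta-glucosidase known as a gene induced by darkness and sugar starvation, came next. It had 25.3, 39.0 and 21.6 RPKM in mutant-labelled libraries, against 3.41, 0.700 and 4.62 RPKM in WT libraries. The lowest mutant-labelled value is well above the highest WT value, which is that of WT 3. BGLU30 rose by 3.05 on the log2 scale, with an SE of 0.45 (limma, adjusted p = 4.7e-08).

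Another higher locus, AT3G06345, lies beside the nuclear ribosomal RNA genes. It carries a microRNA name in the reference and had 36.3, 104.4 and 28.6 RPKM in mutant-labelled libraries, against 9.89, 8.37 and 8.43 RPKM in WT libraries (limma, log2 change 2.31, adjusted p = 2.2e-04). The reference places it on chromosome 3 (14196774 to 14197147), 529 bases before an 18S ribosomal RNA locus and overlapping AT3G41762 by 92 bases. Mutant-labelled 2 was the highest, with 3.78% ribosomal RNA, beside 15.1% and 29.3% in mutant-labelled 1 and 3. The part of ribosomal RNA in these values was not tested. AT3G41762 had 30.02, 53.4 and 21.6 RPKM in mutant-labelled libraries and 7.25, 8.29 and 18.7 RPKM in WT libraries, and did not pass (limma, adjusted p = 0.0541).

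The lower loci of the set included enzymes that conjugate small molecules. GSTU25, a glutathione transferase of the tau class, had 0.862, 0.946 and 0.491 RPKM in mutant-labelled libraries, against 7.02, 11.1 and 7.65 RPKM in WT libraries. UGT73B2, a flavonoid glucosyltransferase, had 0.786, 0.621 and 0.595 RPKM in mutant-labelled libraries, against 5.37, 7.65 and 7.34 RPKM in WT libraries. In both genes WT 3 is as high as the other WT libraries. GSTU25 fell by 2.43 on the log2 scale (limma, adjusted p = 7.4e-06) and UGT73B2 fell by 2.21 (limma, adjusted p = 4.6e-05). The ratio of WT to mutant-labelled means was 11.2 for GSTU25 and 10.2 for UGT73B2, with WT means of 8.60 ± 2.21 and 6.79 ± 1.24 RPKM (SD, n = 3).

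GPT2, which carries glucose 6-phosphate into plastids, was among the more abundant of the lower loci, with 32.3, 16.2 and 13.0 RPKM in mutant-labelled libraries, against 152.6, 112.3 and 74.5 RPKM in WT libraries. No mutant-labelled library reached the lowest WT library, WT 3, and GPT2 fell by 2.45 on the log2 scale, with an SE of 0.46 (limma, adjusted p = 9.8e-05). AT2G17280, annotated as a protein like phosphoglycerate mutase, had 3.19, 2.97 and 3.16 RPKM in mutant-labelled libraries, against 19.3, 21.98 and 11.9 RPKM in WT libraries. Its mutant-labelled values were the most even of the set, and it fell by 2.15 on the log2 scale (limma, adjusted p = 7.0e-04).

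PER69, SCPL20 and LTP10 were 3 more lower loci of the set. PER69, a class III peroxidase, had 10, 8 and 2 reads in mutant-labelled libraries, against 199, 187 and 68 reads in WT libraries. SCPL20, a serine carboxypeptidase-like protein, had 16.3, 19.8 and 6.56 RPKM in mutant-labelled libraries, against 108.5, 109.2 and 23.7 RPKM in WT libraries. LTP10, a lipid transfer protein, had 8.09, 4.36 and 3.73 RPKM in mutant-labelled libraries, against 22.7, 54.1 and 14.7 RPKM in WT libraries. In PER69, SCPL20 and LTP10 WT 3 is the lowest WT library, yet still above all mutant-labelled ones. They fell by 2.16, 2.26 and 2.16 on the log2 scale (limma, adjusted p = 9.0e-06, 4.3e-04 and 7.0e-04).

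AT5G05365, of the heavy metal transport and detoxification superfamily, had 3.59, 1.79 and 1.68 RPKM in mutant-labelled libraries, against 15.8, 22.4 and 11.8 RPKM in WT libraries (limma, log2 change -2.40, adjusted p = 6.6e-05). RD22, a BURP domain protein known as a marker of drought and abscisic acid, had 3.52, 5.14 and 1.29 RPKM in mutant-labelled libraries, against 16.7, 18.21 and 11.1 RPKM in WT libraries (limma, log2 change -2.01, adjusted p = 0.0023). KCS1, which elongates fatty acids for wax, had 16, 21 and 3 reads in mutant-labelled libraries, against 114, 84 and 88 reads in WT libraries (limma, log2 change -1.26, adjusted p = 0.033). None of these 3 genes overlapped between the groups. The other lower calls of the set were AT3G62730 and AT5G44306, which did not overlap, and PDF1, a gene of the epidermis, in which mutant-labelled 2 at 47.3 RPKM exceeded WT 3 at 43.7 RPKM.

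**Figure D4:**
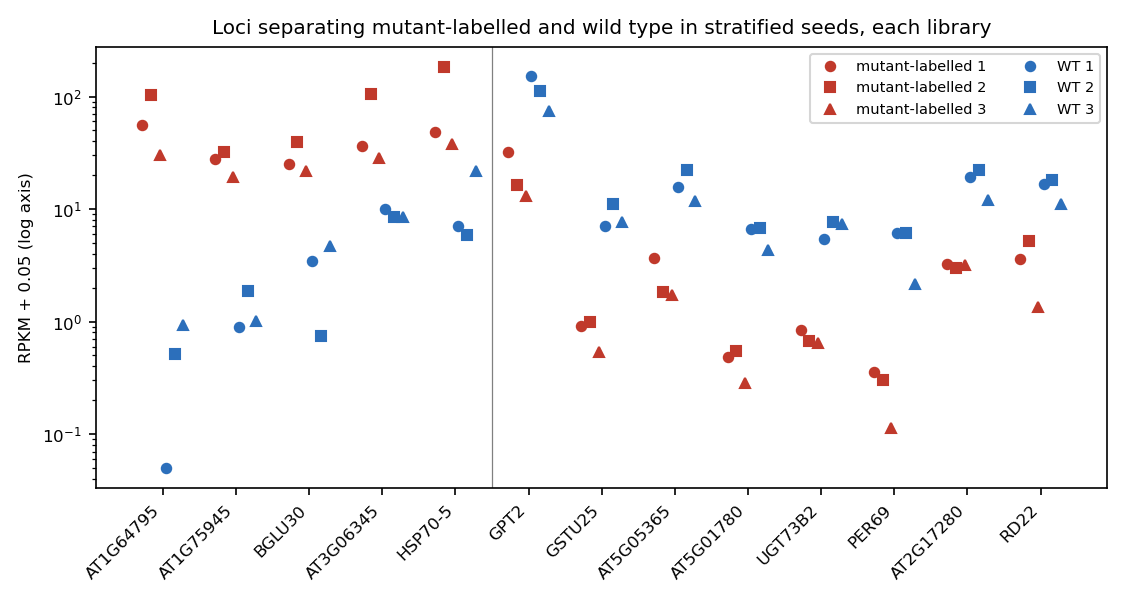
RPKM plus 0.05 on a log axis for 13 named loci, with 1 point for each library, the 3 mutant-labelled ones (red) left of the 3 WT ones (blue) and a different marker for each replicate number. The loci were picked after their values were seen from those without overlap. That the red and blue points do not overlap at any locus shown follows from this choice.

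The bases before the start of 4 of these loci are shown because they lie next to the transcripts that rose or fell with the lowest adjusted p-values in the set of 32, a pair in each direction. AT1G64795 is left out, since the bases before it lie inside ILA. Each run covers the 250 bases before the annotated start, read 5′ to 3′ on the strand of the gene from the TAIR10.1 assembly. Matches to the motifs searched would be in capitals, and there were none.
AT1G75945, higher, chr1:28515917-28516166, minus strand: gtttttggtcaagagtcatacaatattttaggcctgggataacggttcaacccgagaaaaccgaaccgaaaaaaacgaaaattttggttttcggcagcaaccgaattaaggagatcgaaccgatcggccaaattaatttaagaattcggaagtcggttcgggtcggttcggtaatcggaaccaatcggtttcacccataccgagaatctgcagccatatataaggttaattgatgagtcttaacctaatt
BGLU30, higher, chr3:22216290-22216539, plus strand: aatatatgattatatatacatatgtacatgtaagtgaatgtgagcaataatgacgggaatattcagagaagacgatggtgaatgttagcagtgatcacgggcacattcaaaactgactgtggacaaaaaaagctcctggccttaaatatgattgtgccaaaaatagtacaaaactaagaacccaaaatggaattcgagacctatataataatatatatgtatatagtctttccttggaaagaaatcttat
AT5G01780, lower, chr5:304280-304529, minus strand: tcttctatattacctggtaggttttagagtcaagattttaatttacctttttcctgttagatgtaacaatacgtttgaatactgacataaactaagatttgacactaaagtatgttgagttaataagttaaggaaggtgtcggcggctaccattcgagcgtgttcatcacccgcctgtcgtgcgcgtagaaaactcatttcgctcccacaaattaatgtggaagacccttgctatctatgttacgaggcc
GSTU25, lower, chr1:5871774-5872023, plus strand: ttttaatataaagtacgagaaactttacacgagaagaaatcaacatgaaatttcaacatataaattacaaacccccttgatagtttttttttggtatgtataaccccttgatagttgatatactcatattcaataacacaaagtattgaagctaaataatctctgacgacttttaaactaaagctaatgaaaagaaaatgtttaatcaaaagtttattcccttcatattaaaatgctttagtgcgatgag

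The motifs, searched on both strands, were ACGTG, the core of abscisic acid response elements; CATGCA, the core of the RY element of seed genes; AAACCCTA, the telo box; TGGGCC, the site II element of growth genes; and AAAATATCT, the evening element. The windows of AT1G75945, BGLU30, AT5G01780 and GSTU25 held none of the 5. The window of SCPL20 held ACGTG, and that of GPT2 held CATGCA and the evening element. ACGTG stood in 23.2% of the windows of the 95 lower calls and in 24% of those of the 25 nuclear higher calls, beside 23.4% of all 14453 nuclear loci tested. TGGGCC stood in 11.6% of the lower calls and 24% of the higher ones, beside 19.6% of all. These matches are a description of the letters and not of binding.

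In other calls WT 3 lay with the mutant-labelled libraries, as in PRXIIC and BGLU23. PRXIIC, a peroxiredoxin, had 138, 93.8 and 68.5 RPKM in mutant-labelled libraries, against 5.19, 2.15 and 90.5 RPKM in WT libraries. BGLU23 (PYK10), the main beta-glucosidase of ER bodies, had 1.09, 2.03 and 0.602 RPKM in mutant-labelled libraries, against 17.44, 43.6 and 1.01 RPKM in WT libraries. In both genes WT 3 lies inside the range of the mutant-labelled libraries. PRXIIC rose by 2.997 and BGLU23 fell by 2.45 on the log2 scale (limma, adjusted p = 1.9e-07 and 1.4e-05), while in the high rRNA class their log2 differences were 0.10 and -0.13.

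Heat shock genes gave the largest share of calls among the nuclear gene lists. Of 13 tested members, 5 were higher (38.5%, beside 0.302% of all loci) and none lower, with a median log2 change of 1.52. HSP70-5, a cytosolic chaperone, had 48.0, 182.7 and 37.6 RPKM in mutant-labelled libraries, against 7.07, 5.83 and 21.9 RPKM in WT libraries, without overlap (limma, log2 change 2.70, adjusted p = 6.3e-06). HSP17.6B, a small heat shock protein that is not a member of this list, had 32.3, 73.7 and 15.4 RPKM in mutant-labelled libraries, against 11.8, 4.87 and 14.3 RPKM in WT libraries (limma, log2 change 1.72, adjusted p = 0.021). HSP17.7 rose as well, at 439.8, 1861 and 215 RPKM in mutant-labelled libraries against 99.6, 50.6 and 265 RPKM in WT libraries, with overlap (limma, log2 change 2.33, adjusted p = 0.0017). Mutant-labelled 2 is the highest library for all 3 genes, and the list's median log2 change was 3.27 in the low rRNA class and 0.15 in the high one. The number of calls in the list was 11 without WT 3, 3 without mutant-labelled 2, 2 without mutant-labelled 1, 1 each without WT 1 or WT 2 and 0 without mutant-labelled 3.

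HSFA2, the heat stress factor that drives many chaperone genes, was not called. Its level was 1.38, 231.9 and 1.498 RPKM in mutant-labelled libraries, against 122.2, 33.2 and 1.75 RPKM in WT libraries. The 3 libraries of the high rRNA class were at 1.38 to 1.75 RPKM and those of the low class at 33.2 to 231.9 RPKM, whatever their genotype. HSFA9, the seed heat stress factor, had 3.22, 11.0 and 2.31 RPKM in mutant-labelled libraries and 0.748, 1.14 and 3.32 RPKM in WT libraries, which did not pass (limma, adjusted p = 0.193). In the family of small heat shock proteins 4 of 25 tested members were higher (16%, beside 0.302% of all loci) and none lower. Yet 44% of the 25 had negative changes (beside 68.7% of all loci), and the family's median was 0.11, or -0.14 without WT 3. Their coding sequences include near-identical copies, between which reads may be split.

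Storage and desiccation transcripts did not separate the genotypes. None of 13 tested storage protein and oleosin genes passed, and 1 of 17 LEA genes did (5.88%, beside 0.651% of all loci), COR47, which was lower. CRA1, a cruciferin, had 7023, 9892 and 3781 RPKM in mutant-labelled libraries, against 3471, 2597 and 12090 RPKM in WT libraries. EM6, a LEA protein, had 1303, 3083 and 685.7 RPKM in mutant-labelled libraries, against 671.1, 471.4 and 2103 RPKM in WT libraries. WT 3 held the most CRA1 of all 6 libraries and WT 1 and 2 the least. The medians of the storage list were -1.24 in the high rRNA class and 1.25 in the low one, and those of the LEA list -0.76 and 1.62, so the sign turned with the class. In whole seeds, fewer cells of a type and less RNA per cell cannot be told apart.

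The regulators of dormancy and maturation likewise gave no call among 15 tested genes. For 2 of the 15 the mutant-labelled libraries were higher without overlap (13.3%, beside 1.23% of all loci). DOG1, which sets the depth of dormancy, had 8.18, 4.93 and 5.80 RPKM in mutant-labelled libraries, against 3.08, 4.93 and 21.7 RPKM in WT libraries. MFT, a regulator of germination under abscisic acid, had 17.9, 31.3 and 10.7 RPKM in mutant-labelled libraries, against 4.30, 3.44 and 33.1 RPKM in WT libraries. WT 3 was highest for both and WT 1 lowest for DOG1. FUS3 stayed at or under 1.22 RPKM and LEC1 (NFYB9 in the files) at or under 0.241 RPKM in all 6 libraries, and neither was tested.

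Abscisic acid genes showed no call in signalling (28 tested) or metabolism (9 tested), with medians of -0.15 and 0.09 beside -0.20 for all loci. ABI3, a B3 factor of seed maturation, had 63.9, 78.0 and 34.4 RPKM in mutant-labelled libraries and 55.2, 61.0 and 75.2 RPKM in WT libraries. ABI5, the bZIP factor that checks growth after germination, had 29.3, 76.1 and 20.4 RPKM in mutant-labelled libraries and 40.9, 33.4 and 33.6 RPKM in WT libraries. ABI4 had 45.9, 59.2 and 27.2 RPKM in mutant-labelled libraries and 60.1, 62.7 and 35.7 RPKM in WT libraries. All 3 factors overlap between the groups, with mutant-labelled 3 lowest in each. CYP707A2, which breaks down abscisic acid, had a log2 change of -0.17 ± 0.45 (SE; limma, adjusted p = 0.971). CYP707A3, of the same breakdown step, was lower without overlap but did not pass (limma, log2 change -1.05, adjusted p = 0.208). It had 1.14, 1.19 and 0.932 RPKM in mutant-labelled libraries, against 5.198, 3.27 and 2.02 RPKM in WT libraries. CYP707A3 was the 1 of 9 metabolism genes lower in this way (11.1%, beside 3.70% of all loci). The synthesis genes NCED6 and NCED9 had log2 changes of -0.06 and 0.35 (limma, adjusted p = 0.990 and 0.885). The receptor PYL2 did not overlap, at 5.01, 5.63 and 2.999 RPKM in mutant-labelled libraries against 15.1, 17.3 and 6.74 RPKM in WT libraries. PYL2 did not pass (limma, adjusted p = 0.165). It was the 1 of 28 signalling genes lower without overlap (3.57%, near the 3.70% of all loci).

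Gibberellin genes had 2 calls, both lower, among 22 tested (9.09%, beside 0.651% of all loci). GA3OX2, which makes active gibberellin, had 1.77, 2.01 and 1.06 RPKM in mutant-labelled libraries, against 29.6, 13.6 and 1.16 RPKM in WT libraries. GASA4, a gibberellin-regulated peptide, had 0.879, 1.01 and 0.182 RPKM in mutant-labelled libraries, against 9.48, 21.6 and 0.357 RPKM in WT libraries. WT 1 and 2 are high for both genes and WT 3 lies within the mutant-labelled range. GA3OX2 fell by 1.94 and GASA4 by 2.06 on the log2 scale (limma, adjusted p = 0.0023 and 1.8e-04), and in the high rRNA class their differences were 0.15 and 0.14. The list had 4 calls without WT 3 and none without mutant-labelled 3, WT 1 or WT 2. GA3OX1, the other main enzyme of that step in seeds, had a log2 change of -0.60 (limma, adjusted p = 0.733), and RGL2, the DELLA repressor of germination, -0.24 (limma, adjusted p = 0.953).

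Of 19 tested genes of cell wall loosening, which lets the embryo expand, 2 were called, both lower, XTH31 and EXPA4 (10.5%, beside 0.651% of all loci), and the median was -0.79. EXPA4, an expansin, had 6.22, 1.04 and 1.78 RPKM in mutant-labelled libraries, against 7.02, 14.9 and 7.64 RPKM in WT libraries, with no overlap (limma, log2 change -1.58, adjusted p = 0.035). XTH31, which remodels xyloglucan, had 0.786, 5.85 and 0.163 RPKM in mutant-labelled libraries, against 24.2, 37.4 and 0.319 RPKM in WT libraries, where WT 3 sits with the mutant-labelled libraries. EXPA10, an abundant expansin of germinating seeds, had 923.3, 1435 and 467.7 RPKM in mutant-labelled libraries and 934.8, 1210 and 945.3 RPKM in WT libraries, with overlap.

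All 13 tested genes of DNA replication and the cell cycle had negative changes (beside 68.7% of all loci), with a median of -0.79 and no call. PCNA, the sliding clamp, had 4.69, 4.38 and 3.13 RPKM in mutant-labelled libraries, against 18.17, 28.03 and 3.93 RPKM in WT libraries (limma, adjusted p = 0.0688). Its WT 3 value falls inside the mutant-labelled range, and the list's median was 0.15 in the high rRNA class and -1.43 in the low one. Of 35 tested histone genes 3 were lower (8.57%, beside 0.651% of all loci) and none higher, and 7 were lower without overlap (20%, beside 3.70%). HTR2, a histone H3 gene, had 1.95, 1.20 and 0.771 RPKM in mutant-labelled libraries, against 23.9, 46.2 and 2.499 RPKM in WT libraries (limma, log2 change -2.83, adjusted p = 2.7e-07). Its groups do not overlap, but WT 3 lies just above the mutant-labelled libraries, and histone genes have near-identical copies that can share reads. Of 14 tested tubulin genes 2 alpha-tubulin loci, AT1G50010 and AT1G04820, were lower (14.3%, beside 0.651% of all loci).

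Cytosolic ribosomal protein genes, which build the translation machinery, leaned to one side without any of them passing. Of 192 tested, 190 had negative log2 changes (99% beside 68.7% of all loci) and the median was -0.91, or -0.36 after quantile normalization. Their median level was 391, 349 and 205 RPKM in mutant-labelled libraries 1, 2 and 3, against 625.5, 810 and 376 RPKM in WT libraries 1, 2 and 3. Mutant-labelled 1 just exceeds WT 3, and the median difference was -0.36 in the high rRNA class and -1.01 in the low one. For 44 of the 192 the groups did not overlap, all lower (22.9%, beside 3.70% of all loci). Without WT 3, 32 of the genes were called, while without any other single library none was. RPL41G was the 1 member at least 2-fold lower in both classes, at 85.6, 117.2 and 81.7 RPKM in mutant-labelled libraries, against 259.8, 224.4 and 176 RPKM in WT libraries (limma, adjusted p = 0.283). TGGGCC stood before 54.2% and AAACCCTA before 19.8% of these genes, beside 19.6% and 4.09% of all nuclear loci tested. Paralogues of this family are close in sequence, and reads may be split between them.

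Nuclear photosynthesis genes had 3 calls among 36 tested, all lower (8.33%, beside 0.651% of all loci), and a median of -0.77. The groups did not overlap, with mutant-labelled libraries lower, for 5.56% of them, beside 3.70% of all loci. Without WT 3 there were 14 calls, and without mutant-labelled 1, mutant-labelled 3, WT 1 or WT 2 there were none. Their median level was 3.73, 5.67 and 2.24 RPKM in mutant-labelled libraries, against 11.4, 13.4 and 3.29 RPKM in WT libraries. PSBX, a subunit of photosystem II chosen after its values were seen, had 11.1, 9.79 and 5.48 RPKM in mutant-labelled libraries, against 49.8, 90 and 7.77 RPKM in WT libraries. WT 3 is again within the mutant-labelled range, and the difference in the high rRNA class was 0.02.

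Transcripts of the organelle genomes went the other way. All 66 tested plastid loci and all 55 tested mitochondrial loci had positive log2 changes (beside 31.3% of all loci), with medians of 1.04 and 1.09. Of these, 5 and 14 were called higher (7.58% and 25.5%, beside 0.302% of all loci). COX1 of the mitochondrial genome had 65.2, 19.1 and 64.0 RPKM in mutant-labelled libraries, against 4.202, 2.33 and 57.0 RPKM in WT libraries. PSBA of the plastid genome had 359, 7.93 and 389 RPKM in mutant-labelled libraries, against 12.6, 6.38 and 363 RPKM in WT libraries. Both were high in the 3 libraries with much nuclear ribosomal RNA, WT 3 among them, and none of the 19 calls was free of overlap. Without mutant-labelled 1, mutant-labelled 3, WT 1 or WT 2, no organelle locus passed, while without WT 3, 55 plastid and 46 mitochondrial loci did, and without mutant-labelled 2, 49 and 27. In the high rRNA class the medians were 0.38 for plastid and 0.10 for mitochondrial loci, and in the low one 0.05 and 0.95. COX1 and PSBA were chosen after their values were seen. Purification on oligo-dT beads is meant to leave such RNA out, and the part of ribosomal RNA carry-over in these differences was not tested.

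**Figure D5:**
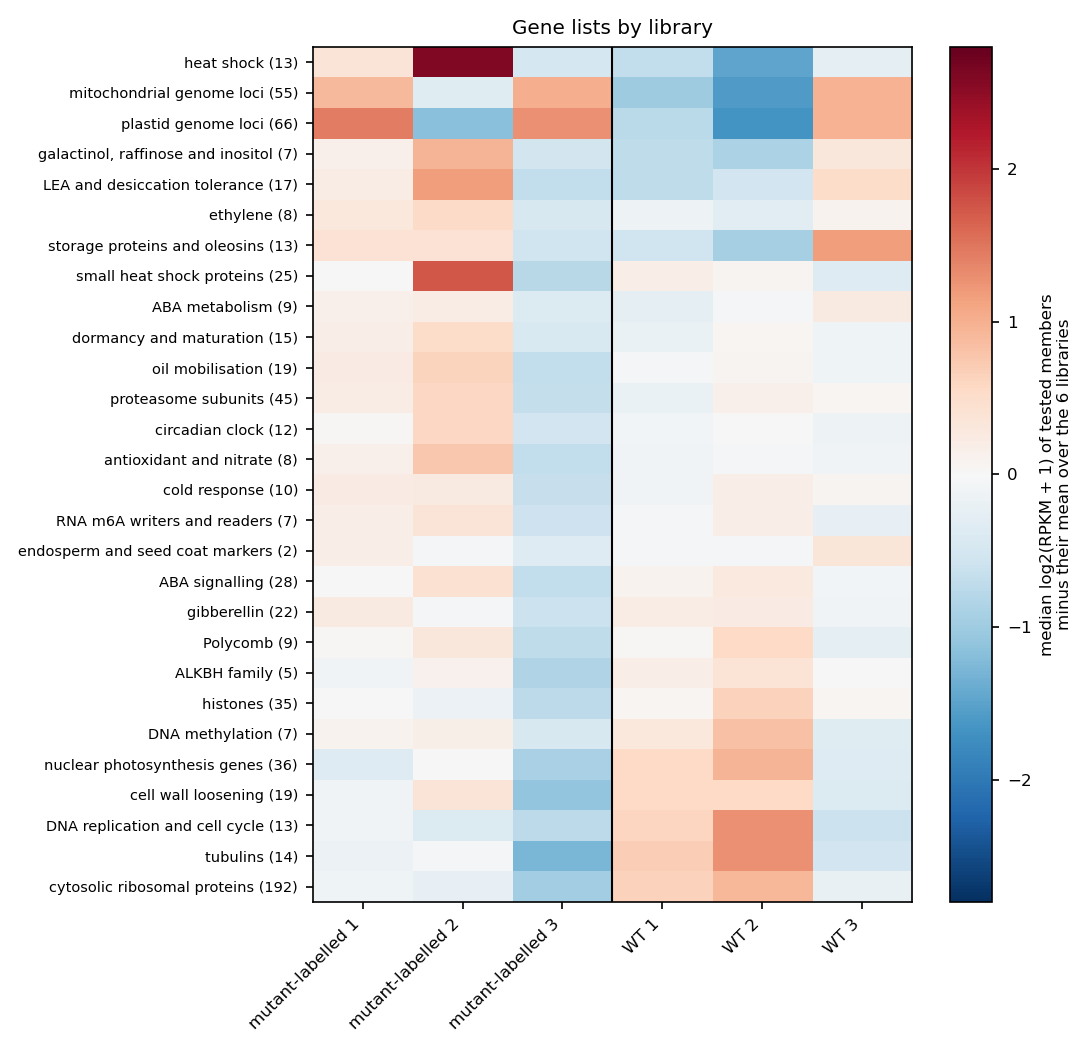
Rows are gene lists with the number of tested members, columns the 6 libraries with mutant-labelled left of WT, and colour the median over members of log2(RPKM + 1) minus its mean over the 6 libraries. Organelle lists are high in mutant-labelled 1, mutant-labelled 3 and WT 3, heat shock peaks in mutant-labelled 2 at 2.60, and growth lists are high in WT 1 and 2.

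Lists on methylation and chromatin had no call. Of the DNA methylation genes 7 were tested, with a median of -0.52, and the demethylase gene ROS1 stayed at or under 1.25 RPKM and was not tested. DMT1 (MET1), which maintains cytosine methylation, had 0.493, 1.07 and 0.322 RPKM in mutant-labelled libraries and 1.58, 2.61 and 0.535 RPKM in WT libraries, with overlap (limma, adjusted p = 0.574). The 7 tested writers and readers of RNA N6-methyladenosine had log2 changes from -0.36 to 0.13. The Polycomb list had 9 tested members and a median of -0.21, and CLF, a histone methyltransferase, had 1.03, 2.11 and 0.722 RPKM in mutant-labelled libraries and 4.53, 7.26 and 0.986 RPKM in WT libraries (limma, adjusted p = 0.239).

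Oil mobilisation had 1 call among 19 tested genes (5.26%, beside 0.651% of all loci), PMDH2, a peroxisomal malate dehydrogenase, which was lower. ICL, an enzyme of the glyoxylate cycle, had 2171, 2881 and 1013 RPKM in mutant-labelled libraries and 1110, 1059 and 1807 RPKM in WT libraries, with overlap (limma, adjusted p = 0.888). SDP1, the lipase that starts oil breakdown, had 33.1, 43.9 and 22 RPKM in mutant-labelled libraries and 16.9, 19.9 and 21.9 RPKM in WT libraries. These meet without overlap (limma, adjusted p = 0.674), as the 1 of 19 genes higher in this way (5.26%, beside 1.23% of all loci). No call was found among 10 cold response, 12 circadian clock, 8 ethylene, 7 galactinol and inositol, 8 antioxidant and nitrate, 45 proteasome and 2 endosperm or seed coat genes tested. KIN2 was the 1 cold response gene lower without overlap (10%, beside 3.70% of all loci), at 4, 7 and 4 reads in mutant-labelled libraries against 47, 32 and 18 in WT libraries. It did not pass (limma, adjusted p = 0.0708), but did in the fit of all 12 libraries (limma, adjusted p = 0.046). IPS2, a myo-inositol phosphate synthase, did not overlap, at 6.07, 16.2 and 4.81 RPKM in mutant-labelled libraries against 1.67, 1.58 and 4.34 RPKM in WT libraries. IPS2 did not pass (limma, adjusted p = 0.0745). It was the 1 of 7 galactinol and inositol genes higher without overlap (14.3%, beside 1.23% of all loci).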

How the data were processed

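The authors deposited 1 table of RPKM values for 32833 loci in 12 libraries, and the 6 stratified ones were used. Per the labels' protocols, Trizol was used for total RNA, oligo-dT beads for mRNA and a directional kit for the libraries. STAR, DESeq2 and TAIR10 appear in the submitters' processing notes with no version or role. Counting settings were not given in the sources used here. RPKM divides by the reads of the library, so abundant RNA such as ribosomal RNA lowers every other value.

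Names, positions and exon lengths came from TAIR10.1 with its RefSeq annotation, which holds 32548 of the loci. With these lengths, 99.4% of 45884 values under 2 RPKM were whole reads within 0.05, which gave the reads behind each value. Reads carried no molecular identifiers.

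Loci with at least 1 RPKM in at least 3 of the 6 libraries entered a test of log2(RPKM + 1) in limma 3.58.1 (R 4.3.3), with a mean-variance trend, 2-sided, adjusted by Benjamini-Hochberg over 14582 loci. Fold changes on this scale understate changes of low loci. A count test was not used, since the values are not counts. The fit was also run on simulated data, drawn independently for each library with the trend variance. That run cannot show whether the trend variance suits these libraries, since it assumes it. Replicate pairs had a chi-square per degree of freedom of 38.6 or more, so none was a repeat deposit.

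Members and gene lists (20 lists and 8 families) were chosen with earlier results of these data known, and 3 list entries whose locus carries another name were dropped. Named genes were, per direction, up to 12 called loci with the largest 2-fold changes, no overlap and 5 RPKM or more in the higher group (filled by p-value with loci named as not passing), 3 ALKBH loci, a set of regulators, and up to 2 members per list and direction. Genes outside this rule are said to be chosen after their values were seen, or belong to the set at least 2-fold changed in both rRNA classes.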

Additional observations from a re-analysis of the deposited data

How the results depend on the processing

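The calls depended strongly on the setting, and the causes were not tested. Beside 44 higher and 95 lower loci, the fit without a filter on low values called 0 and 0 (247 and 1051 at an unadjusted p under 0.05), and a filter of 5 RPKM 36 and 31. A pseudocount of 0.1 gave 80 and 101, and one of 5 gave 26 and 104. Median centring gave 2 and 1, scaling of the TMM kind 2 and 2, quantile normalization 2 and 2, and leaving out ribosomal RNA 4 and 6. The fit of all 12 libraries called 5 and 23, of which 24 in all were among the 139 calls. The fit with no mean-variance trend gave 39 and 68. Sample quality weights gave 5041 and 6552, from an estimate that stopped without converging. Leaving out 1 library at a time gave 2 to 359 higher and 0 to 1043 lower loci, with the lowest numbers without mutant-labelled 3 (2 and 0) and the highest without WT 3 (359 and 1043). Of the 139 calls, 138 passed without WT 3, 119 without mutant-labelled 2, 30 without mutant-labelled 1, 12 without WT 1, 12 without WT 2 and 2 without mutant-labelled 3. The prior of the variance was infinite in the reported fit, whereas it had 4.239 degrees of freedom without mutant-labelled 3, 4.295 without a filter, 3.08 to 3.30 after median centring, scaling or quantile normalization, 7.81 without ribosomal RNA, 10.11 with all 12 libraries and 4.071 with the replicate block. The counts of calls in those fits are therefore not on the same footing as that of the reported fit. What part of the lost calls came from the prior was not tested. Without mutant-labelled 3, 137 of the 139 loci were still at least 2-fold changed the same way. Their median absolute log2 change was 1.49, against 1.71 with that library.

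Added after the data were seen, each locus's own variance gave 0 and 0 (93 and 145 at an unadjusted p under 0.05), robust shrinkage 19 and 88, and rRNA class as a factor 48 and 67. The high rRNA class alone gave 0 and 0 (3 and 25 at an unadjusted p under 0.05) and the low class alone 1196 and 1088, each with 1 group of 1 library that is assumed to vary like the others.

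Samples with the same replicate number had correlations of deviations of -0.25, 0.17 and 0.19, within the -0.25 to 0.26 of pairs with different numbers. The labels do not say whether a number marks a shared batch. These values cannot decide it, since the deviations of 3 libraries from their mean are not independent. With a replicate block 0 and 0 loci passed (197 and 2737 at an unadjusted p under 0.05).

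Sign changes were counted where a value passed in at least 1 of the fits. With sample quality weights the log2 change was 0.20 for ABI3, -0.46 for ABI5, 1.12 for DOG1, 0.70 for RGL2, 0.40 for CYP707A2, 0.58 for NCED6, 0.23 for AT2S2, -0.27 for EXLA1, 0.27 for CCA1, 0.22 for IPS1 and 0.55 for CAT1. In the high rRNA class it was 0.15 for GA3OX2, 0.14 for GASA4 and 0.13 for XTH31, and in the low class 1.84 for HSFA2. Depth limits the loci with the fewest reads, such as AT3G14140.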

Other observations

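Further lower calls outside the gene lists, picked after their values were seen and with no count of related genes, were BDG1, GPAT4, LTP1, CHLI1 and PORC. BDG1, a hydrolase needed for the cuticle, had 1.20, 1.46 and 0.610 RPKM in mutant-labelled libraries, against 6.42, 8.40 and 1.96 RPKM in WT libraries. GPAT4, an acyltransferase of cutin synthesis, had 2.31, 2.08 and 0.804 RPKM in mutant-labelled libraries, against 11.5, 13.7 and 3.57 RPKM in WT libraries. Neither gene overlapped between the groups, with WT 3 the lowest WT library in both. BDG1 fell by 1.52 and GPAT4 by 1.84 on the log2 scale (limma, adjusted p = 0.021 and 0.0050). LTP1, a lipid transfer protein of the epidermis, had 37.9, 48.5 and 15.3 RPKM in mutant-labelled libraries, against 121, 205 and 41.2 RPKM in WT libraries, with overlap at WT 3.

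CHLI1, a subunit of magnesium chelatase, had 15.3, 13.7 and 8.60 RPKM in mutant-labelled libraries, against 62.8, 110 and 10.08 RPKM in WT libraries. PORC, a protochlorophyllide reductase, had 1.35, 1.61 and 0.355 RPKM in mutant-labelled libraries, against 9.01, 16.2 and 1.17 RPKM in WT libraries. In both, WT 3 lies within the range of the mutant-labelled libraries. CHLI1 fell by 1.70 and PORC by 1.83 on the log2 scale (limma, adjusted p = 0.026 and 0.0025), and their differences in the high rRNA class were 0.18 and -0.28.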
